A study of Mus musculus with 8 samples.

Results

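The Kupffer cell identity genes described here are 10 of the 25010 genes in the table: Cd5l, Cd163, Clec4f, Marco, Kcna2, Timd4, Vsig4, Cd207, Folr2 and Il18bp. They are known as genes of the resident macrophage of the liver, and several of them were picked from their measured change between the same WT and LXRDKO livers that are described here. Their differences between the genotypes are therefore given as a description, without a test. Kupffer cells line the liver sinusoids, where they take up particles, dying cells and bacteria from the blood. Among the transcription factors on which the identity of these cells depends is LXRα, a nuclear receptor with sterol ligands, which acts there beside general macrophage factors such as PU.1. Much of what sets Kupffer cells apart from other macrophages is a program of receptors for particles, sugars, complement and dying cells, and several of these 10 genes encode such receptors.

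The left hepatic lobe of 2 WT and 2 LXRDKO mice was sequenced for RNA, 1 library per mouse. All mice had the C57BL/6 background, were 8 wk old and had gone without food for 4 to 6 h. LXRDKO mice lack LXRα (Nr1h3) and LXRβ (Nr1h2) in the whole body, so receptor loss was not restricted to macrophages. Reads on genes numbered 55772659 and 72842744 in WT and 63681131 and 56281367 in LXRDKO. Values are normalized counts, that is, reads divided by a size factor per library, and log2 fold changes compare LXRDKO with WT on the scale of log2(normalized count + 1), on which differences of weakly expressed genes come out too small.

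The labels were checked on the deleted genes and on the tissue. Nr1h3 had 5785 and 5322 normalized counts in WT against 1712 and 1826 in LXRDKO livers, and Nr1h2 had 2987 and 3110 against 925 and 1003. Both genes fell (log2 fold change −1.65 with SE 0.095 and −1.66 with SE 0.098, limma, adjusted P = 0.0147 for each, lower in 2 of 2 LXRDKO livers), and the table holds 1 value per gene, so the exons behind the reads that are left cannot be seen. The hepatocyte gene Alb, which encodes albumin, had between 4644569 and 5959085 normalized counts in every liver, so the tissue carried the marker of its main cell type. The material is whole liver, a mix in which macrophages are a minority.

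Of the 10 genes, 9 had both LXRDKO values under both WT values and 1, Cd207, had both above. Over all 15578 genes tested, 23.0% had both LXRDKO livers below both WT livers and 21.7% had both above; since the members were chosen on this contrast, nothing is read from their counts. The median log2 fold change of the members was −2.97, beside −0.0046 over all genes tested. All 10 passed the filter of a mean of 10 normalized counts, but Kcna2 and Timd4 passed through the WT livers, as their LXRDKO means were below 10. In bulk liver, fewer Kupffer cells and less RNA per Kupffer cell cannot be told apart for the 9 lower genes, nor more cells with Cd207 RNA and more of it per cell for Cd207.

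**Figure D1:**
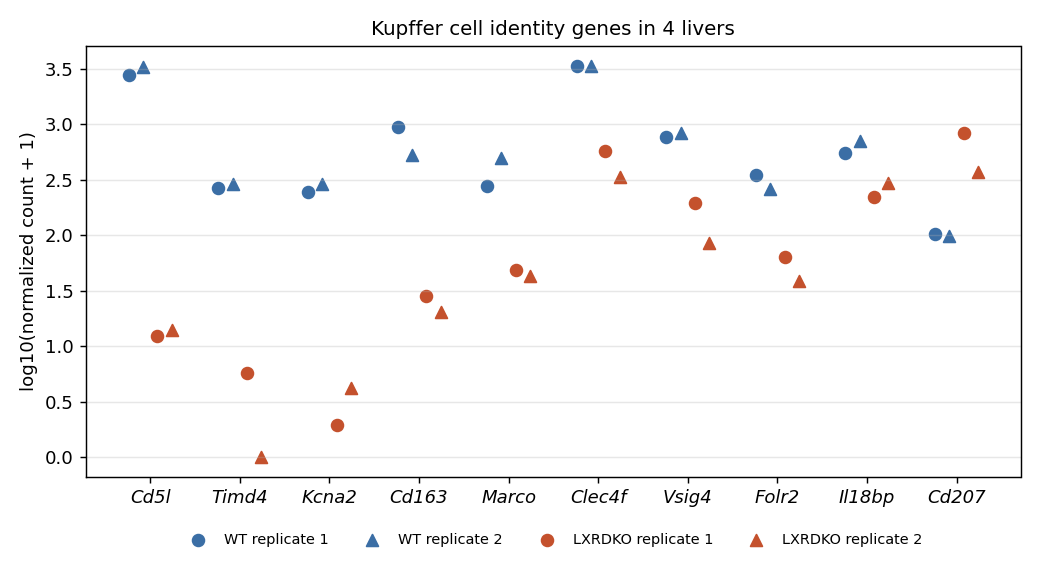
Normalized counts of the 10 Kupffer cell identity genes in each liver, on a vertical axis of log10(normalized count + 1), with WT in blue, LXRDKO in red, circles for replicate 1 and triangles for replicate 2. Genes run from the lowest log2 fold change (Cd5l, −7.85) to the highest (Cd207, 2.47), and the groups overlap in none of the 10. Among all genes tested, 23.0% had both LXRDKO livers below both WT livers and 21.7% had both above. The members were chosen partly on this contrast.

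Cd5l, Cd163 and Marco encode proteins with scavenger receptor cysteine-rich domains. Cd5l, which encodes a secreted protein also known as AIM, was at 2780 and 3293 normalized counts in WT livers against 11.4 and 12.9 in the LXRDKO livers. The LXRDKO values rest on 12 reads in each library, and exact Poisson intervals at 95% reach from 5.89 to 19.9 and from 6.65 to 22.5 normalized counts; these intervals cover counting error only. Both LXRDKO livers were far below both WT livers, and the LXRDKO mean was 0.399% of the WT mean (log2 fold change −7.85). Cd163, the receptor for hemoglobin bound to haptoglobin, had 939 and 524 normalized counts in WT against 27.5 and 19.3 in LXRDKO. The WT livers differed more from each other for Cd163 than for Cd5l, yet the lower of them was still well above both LXRDKO livers (log2 fold change −4.87). Marco, a class A scavenger receptor for bacteria and particles whose extracellular part ends in the same kind of domain, had 275 and 491 normalized counts in WT against 47.5 and 41.8 in LXRDKO. For Marco WT replicate 2 was the high liver, whereas for Cd163 it was WT replicate 1, and the LXRDKO livers were close to each other; the mean stood 8.58-fold lower in LXRDKO (log2 fold change −3.02).

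Timd4 and Kcna2 were close to the detection limit in LXRDKO livers. Timd4 encodes the phosphatidylserine receptor TIM-4, with which resident macrophages bind dying cells, and had 266 and 288 normalized counts in WT against 4.75 and 0 in LXRDKO. These are 5 reads and 0 reads, and 0 reads allow up to 3 reads, or 3.22 normalized counts, in that library, where the two-sided exact interval at 95% reaches 3.95. Summed over the livers of a genotype and scaled for depth, Timd4 was 111-fold lower in LXRDKO, with a counting interval from 47.1 to 342. Kcna2, a voltage-gated potassium channel best known from neurons, had 243 and 286 normalized counts in WT against 0.949 and 3.22 in LXRDKO, from 1 and 3 reads. Its summed ratio was 133-fold lower with a counting interval from 51.6 to 490. WT livers were alike in both genes, and no LXRDKO liver came near them.

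The C-type lectins Clec4f and Cd207 went in opposite directions. Clec4f, a galactose-binding lectin used as a marker of mouse Kupffer cells, had 3309 and 3369 normalized counts in WT against 575 and 333 in LXRDKO. The WT livers were nearly equal and LXRDKO replicate 1 was the higher of its pair, with means of 3339 ± 42.4 and 454 ± 171 (SD, n = 2 each), a 7.35-fold lower level (log2 fold change −2.93). Unlike Cd5l or Timd4, Clec4f still had 606 and 311 reads in the LXRDKO libraries. Cd207 encodes langerin, a lectin best known from the Langerhans cells of the skin, and had 100.4 and 97.6 normalized counts in WT against 826 and 369 in LXRDKO. LXRDKO replicate 1 was again the higher liver, and both lay above WT, with a mean 6.03-fold higher (log2 fold change 2.47). Cd207 therefore goes against the direction of the other 9 genes. Per kilobase of exon, the ratio of Cd207 to Clec4f was 0.0492 and 0.0470 in the WT livers against 2.33 and 1.80 in the LXRDKO livers.

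Vsig4 and Folr2 also encode cell surface receptors. Vsig4, the complement receptor CRIg that clears opsonized particles, had 763 and 838 normalized counts in WT against 194 and 84.7 in LXRDKO (log2 fold change −2.63). Folr2, a folate receptor of tissue macrophages, had 350 and 259 in WT and 62.6 and 37.5 in LXRDKO (log2 fold change −2.61). In both genes LXRDKO replicate 2 was the lower of its pair, as for Clec4f, and the groups did not overlap. Folr2 overlaps the antisense gene Gm10602 over 2784 bases; whether counting used strand is not given in the sources used here, so reads from the overlap could belong to either gene. Gm10602 itself had 153 and 110 normalized counts in WT against 152 and 107 in LXRDKO.

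Il18bp, which encodes a secreted protein that binds and blocks interleukin 18, had the smallest difference of the 10. It had 551 and 709 normalized counts in WT against 218 and 292 in LXRDKO, a mean 2.47-fold lower (log2 fold change −1.30). Replicate 2 was the higher liver in each genotype, and the higher LXRDKO liver stayed below the lower WT liver. Its last 80 bases on chromosome 7 overlap Numa1, which lies on the other strand and had 6506 and 5940 normalized counts in WT against 5385 and 5374 in LXRDKO. Il18, which encodes the cytokine it binds, had 546 and 544 normalized counts in WT against 501 and 587 in LXRDKO, so the groups overlapped.

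Levels of different genes were compared per kilobase of exon. In WT livers Cd5l and Clec4f led with means of 1491 and 1351 normalized counts per kb, and their ranges did not meet. Vsig4 followed at 539, and Il18bp (208), Marco (199), Folr2 (197), Cd163 (134) and Timd4 (127) formed a run in which each range overlapped that of the gene after it within the run. Cd207 (65.0) and Kcna2 (22.2) were lowest in WT. In LXRDKO livers the order opened with Cd207 at 392 and Clec4f at 184 normalized counts per kb, whose ranges did not meet. Vsig4 (93.8) and Il18bp (84.3) came next with overlapping ranges, as did Folr2 (32.4) and Marco (23.2), and Cd5l, first in WT, was seventh at 5.96. Cd163 (4.29), Timd4 (1.09) and Kcna2 (0.175) closed the order, the last pair with overlapping ranges.

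The livers of one genotype also differed in these genes. In LXRDKO, 7 of the 10 members were lower in replicate 2 than in replicate 1. The median absolute log2 difference was 0.75, beside 0.17 over all genes tested. The count and the median include Kcna2, with 1 and 3 reads, and Timd4, with 5 and 0 reads, whose differences can be counting error. In WT the same median was 0.24, beside 0.18 over all genes tested. The list of 19 genes of macrophages in general, moved between livers of one genotype too: 19 of its 19 genes were lower in LXRDKO replicate 2 than in replicate 1, with a median of −0.66, and 18 were higher in WT replicate 2 than in WT replicate 1, with a median of 0.34. Csf1r, the receptor for the macrophage growth factor CSF1, had 2291 and 2578 normalized counts in WT against 3477 and 1826 in LXRDKO. Over all genes tested, the median log2 difference of LXRDKO replicate 2 from replicate 1 was 0.0024. Several other lists were also mostly lower in LXRDKO replicate 2, with 11 of 12 endothelial, 10 of 12 dendritic cell and 10 of 14 transcription factor genes. Among genes of monocytes and lipid-associated macrophages 5 of 13 were lower there, among stellate cell genes 3 of 10 and among bile duct genes 1 of 4. The lower values in that liver were thus not confined to the members and general macrophage genes, and whether cell number set any of them was not tested.

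The members were also set against C1qa, C1qb and C1qc, the complement genes of tissue macrophages. The 3 C1q genes summed to 5117 and 5933 normalized counts in WT against 6316 and 3956 in LXRDKO, so the groups overlapped. Per 1000 C1q counts, Clec4f had 647 and 568 in WT and 91.1 and 84.3 in LXRDKO. On this scale the LXRDKO livers were close for Clec4f, while their normalized counts had differed. Folr2 was alike in this, with 9.92 and 9.49 in LXRDKO and 68.4 and 43.6 in WT. Cd163, Vsig4 and Cd207 also had LXRDKO livers closer to each other in ratio on this scale than in normalized counts. For Il18bp, with 34.6 and 73.7, Marco, with 7.51 and 10.6, Cd5l and Kcna2 they lay farther apart. Cd5l had 543 and 555 in WT and 1.80 and 3.25 in LXRDKO, and Cd207 had 19.6 and 16.5 in WT and 131 and 93.2 in LXRDKO. The median over the members of the log2 difference in this ratio was −2.83. Dividing by one sum per liver shifts every member by the same amount, so their order is not informative. The groups overlapped in none of the 10 on this scale. Since the members were chosen on this contrast and no share over all genes is given on this scale, nothing is read from that count. The C1q genes are expressed by other macrophages as well, so the ratio does not give a level per Kupffer cell.

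**Figure D2:**
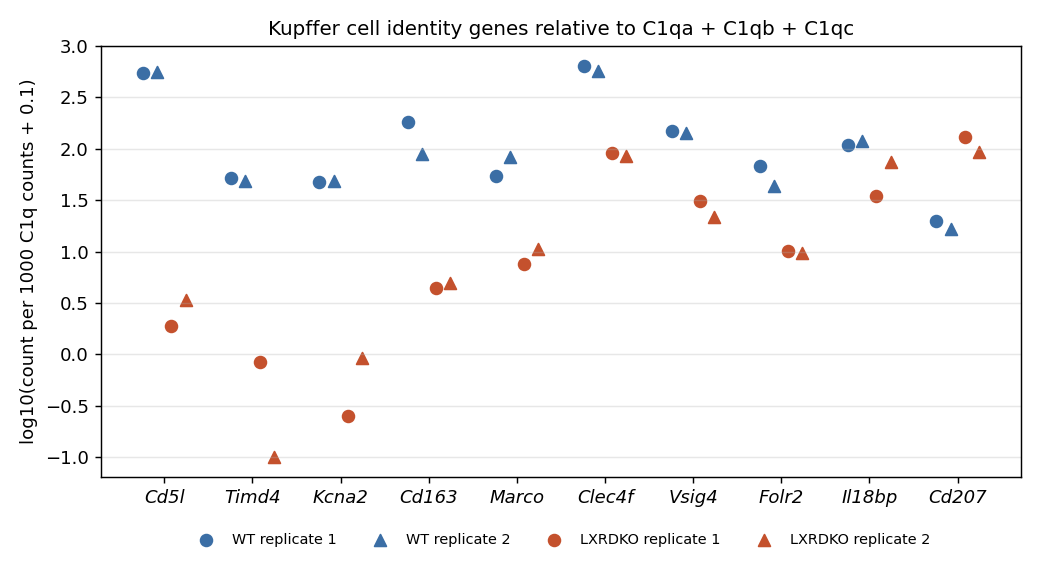
The 10 Kupffer cell identity genes per 1000 normalized counts of C1qa, C1qb and C1qc in the same liver, on a vertical axis of log10(ratio + 0.1), with WT in blue, LXRDKO in red, circles for replicate 1 and triangles for replicate 2. Clec4f has 647 and 568 in WT and 91.1 and 84.3 in LXRDKO on this scale, and Cd207 is the gene with LXRDKO above WT.

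General macrophage genes had a median near 0. In this list the log2 fold changes had their median at 0.064 (6 genes lower, 13 higher), and its summed level was 23540 and 28552 normalized counts in WT against 27884 and 19508 in LXRDKO, with Mpeg1 the most abundant gene and none at 0. Limma called 0 of the 19, edgeR 0 and DESeq2 1, with 4 at an unadjusted limma P value under 0.05, a level that 13.3% of all genes tested reached. The gene DESeq2 called was Mpeg1, which encodes perforin-2, with 4633 and 6256 normalized counts in WT against 2660 and 2639 in LXRDKO (log2 fold change −1.02, DESeq2 adjusted P = 2.27e-06, limma adjusted P = 0.0893, lower in 2 of 2 LXRDKO livers). The sign of this median is not firm: leaving out WT replicate 1 or LXRDKO replicate 1 gave −0.10 and −0.27, and leaving out WT replicate 2 or LXRDKO replicate 2 gave 0.26 and 0.42. Lgmn, a lysosomal protease, had 2562 and 3089 normalized counts in WT against 2537 and 2042 in LXRDKO.

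Of 21 other genes enriched in Kupffer cells, limma called 2 lower and 0 higher, where it called 0.186% of all genes tested lower and 0.135% higher. Their median log2 fold change was −0.42, beside −0.0046 over all genes tested, and it was −0.22 without LXRDKO replicate 2. Of the 21, 8 had an unadjusted limma P value under 0.05, where 13.3% of all genes tested did. The list holds no member and was chosen with earlier results of these data known. Its counts and its median are therefore a description. Cdh5, which encodes VE-cadherin and is also an endothelial gene, fell from 1489 and 1406 to 598 and 594 normalized counts (log2 fold change −1.28, SE 0.11, adjusted P = 0.0255, limma, lower in 2 of 2 LXRDKO livers). Pcolce2, a procollagen processing enhancer, fell from 62.7 and 75.5 to 2.85 and 4.29 (log2 fold change −3.95, SE 0.41, adjusted P = 0.0432, limma, lower in 2 of 2 LXRDKO livers). Both calls were lost without the trend and when either LXRDKO liver was left out, where the list had 0 calls. That of Pcolce2 was also lost without a filter and without WT replicate 2, and a filter at a mean of 50 left Pcolce2 untested. DESeq2 on the recovered reads called 6 of the 21 lower, adding Gfra2, Cd38, Dmpk and Ccl24. Of the 15797 genes that DESeq2 tested, it called 2.03% lower and 1.56% higher. Ccl24, a chemokine for eosinophils, had 86.7 and 86.6 normalized counts in WT against 2.85 and 9.65 in LXRDKO (DESeq2 adjusted P = 2.25e-06, limma adjusted P = 0.0893). The most abundant genes of this list were Apoc1, Abcc3 and C6, which hepatocytes also express, and limma called none of these 3 genes (adjusted P = 0.805, 0.835 and 0.550; DESeq2 adjusted P = 0.982, 1.00 and 0.626). Their groups overlapped.

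The transcription factors tied to macrophage or Kupffer cell identity, with the LXR genes left out, showed no call. Among 14 factors limma, DESeq2 and edgeR each called 0, with 1 at an unadjusted limma P value under 0.05, and the median log2 fold change was −0.13, or 0.13 without WT replicate 2 and 0.14 without LXRDKO replicate 2. Rxra, which encodes the dimerization partner of the LXRs, had 42904 and 36652 normalized counts in WT against 37290 and 33634 in LXRDKO. Cebpb had 12075 and 9940 in WT and 13256 and 13957 in LXRDKO. Whole liver mixes all its cell types, so these values do not give the level of a factor within Kupffer cells. Of 15 ligands and receptors through which liver cells act on Kupffer cells, limma and edgeR called 0, with 4 at an unadjusted limma P value under 0.05, and DESeq2 called 2 higher. These were Il34, a second ligand of the CSF1 receptor, with 124 and 116 normalized counts in WT against 243 and 241 in LXRDKO (DESeq2 adjusted P = 0.00999, limma adjusted P = 0.127), and Gdf2, which encodes BMP9, with 894 and 711 against 1437 and 1271 (DESeq2 adjusted P = 0.00408, limma adjusted P = 0.139). Eng, Notch2 and Tgfbr2 were the most abundant of this list and were not called by either tool.

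Of 16 listed genes of monocytes and lipid-associated macrophages 13 were tested, 11 were higher and 2 lower, and the median log2 fold change was 1.02. The WT livers differed as much: 13 of the 13 genes were higher in WT replicate 2 than in WT replicate 1, with a median log2 difference of 1.09, and leaving out WT replicate 1 gave a median between genotypes of 0.56, leaving out WT replicate 2 one of 1.61. Gpnmb, a glycoprotein of lipid-laden macrophages, rose from 11.4 and 25.5 to 644 and 622 normalized counts (log2 fold change 5.13, SE 0.39, adjusted P = 0.0239, limma, higher in 2 of 2 LXRDKO livers). It was the 1 gene of the list that limma called, with 9 of the 13 at an unadjusted limma P value under 0.05, and the list had 0 calls without the trend and when either LXRDKO liver was left out. DESeq2 called 3 higher and 1 lower, where it called 1.56% of the genes it tested higher and 2.03% lower. Limma called 0.135% of all genes tested higher, and 13.3% had an unadjusted limma P value under 0.05. Trem2, a lipid receptor, had 14.8 and 45.0 normalized counts in WT against 137 and 87.9 in LXRDKO (DESeq2 adjusted P = 0.0334, limma adjusted P = 0.235), and Cx3cr1, the fractalkine receptor, had 29.7 and 100.2 against 265 and 206 (DESeq2 adjusted P = 0.0103, limma adjusted P = 0.233). Fabp5, a fatty acid binding protein, was the lower one, with 667 and 1978 in WT and 156 and 199 in LXRDKO (DESeq2 adjusted P = 0.00654, limma adjusted P = 0.127). The list summed to 3141 and 7056 normalized counts in WT against 6576 and 7182 in LXRDKO, with Spp1 the most abundant gene and Chil3 at 0 in WT replicate 1. The part of such cells in the values of the members was not tested.

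Genes of other liver cells had medians nearer to 0 than the members. The members were chosen partly on this contrast, so nothing is read from that difference. Of all genes tested, limma called 0.186% lower and 0.135% higher, and 13.3% had an unadjusted limma P value under 0.05. DESeq2 called 2.03% of the genes it tested lower and 1.56% higher. Of 12 sinusoidal endothelial genes, 11 were lower and the median was −0.55 on the log2 scale, with summed levels of 22270 and 19910 in WT and 17300 and 13006 in LXRDKO. Of these genes 11 were lower in LXRDKO replicate 2 than in LXRDKO replicate 1, by a median of −0.37, and without LXRDKO replicate 2 the median between genotypes was −0.32. Kdr, the receptor VEGFR2, was the 1 call by limma, beside 8 of the 12 at an unadjusted limma P value under 0.05, and fell from 2447 and 2164 to 1116 and 934 normalized counts (log2 fold change −1.17, SE 0.13, adjusted P = 0.0498, limma, lower in 2 of 2 LXRDKO livers). This call was lost under both other scalings, with a pseudocount of 0.5, under both other filters, without the trend and without either LXRDKO liver. DESeq2 called 3, adding Flt4 and Dnase1l3. Of 10 stellate cell genes 10 were higher, with a median of 0.40 and 0 calls by limma or edgeR, 6 at an unadjusted limma P value under 0.05, and 2 by DESeq2, Reln and Dcn. The 12 dendritic cell genes had a median of −0.036 and the 8 hepatocyte genes −0.047, with 0 calls by limma, DESeq2 and edgeR and 0 at an unadjusted limma P value under 0.05 in each list. The sign of neither median is firm: scaling to the library total turned both, and leaving out single livers moved the dendritic median between −0.39 and 0.27 and the hepatocyte median between −0.14 and 0.034. Of 7 lymphocyte genes 6 were lower, with a median of −0.96 (−0.60 without WT replicate 2) and 0 calls by limma, DESeq2 and edgeR but 4 at an unadjusted limma P value under 0.05, at summed levels of at most 281 normalized counts per liver. The neutrophil list had 2 genes tested, with 0 calls by the 3 tools and 0 at an unadjusted limma P value under 0.05. Its median was 0.13, or −0.11 without WT replicate 1, so this sign is not firm either. Retnlg was at 0 in LXRDKO replicate 2. The 4 bile duct genes were higher with a median of 0.83, of which limma and edgeR called 0 and DESeq2 called 1, Epcam, with 2 at an unadjusted limma P value under 0.05. The part of these cell types in the values of the members was not tested.

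**Figure D3:**
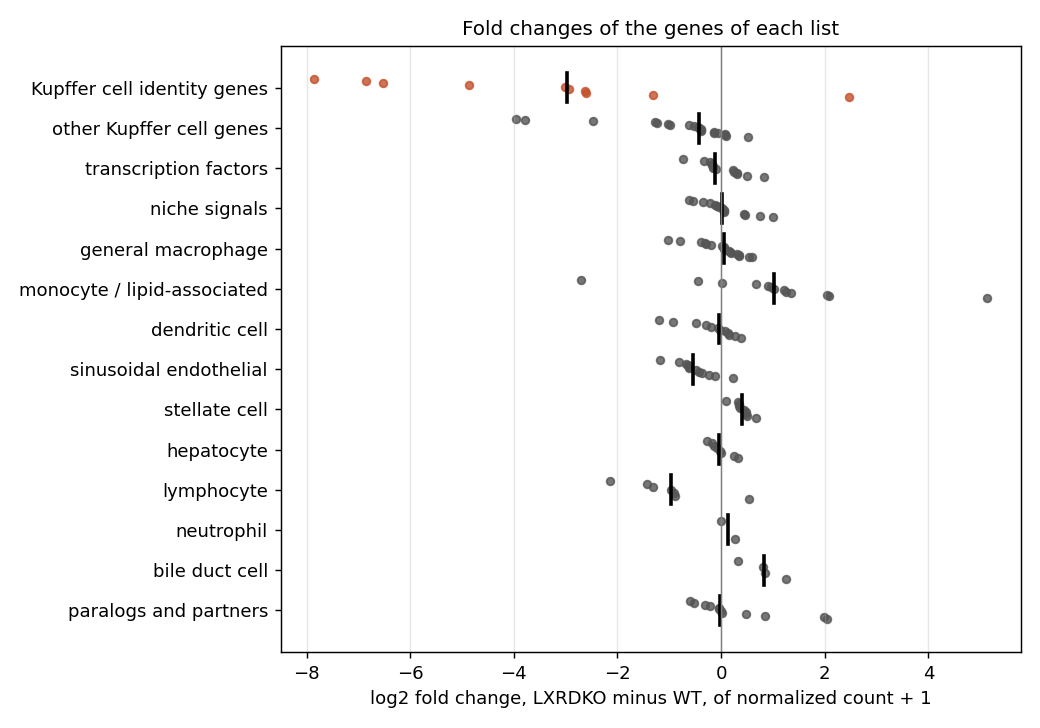
Log2 fold changes, LXRDKO minus WT, on the scale of normalized count + 1, for the tested genes of each list, with one point per gene and a bar at the median of the list. The members have a median of −2.97, general macrophage genes 0.064 and genes of monocytes and lipid-associated macrophages 1.02; the members were chosen partly on these values.

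Paralogs and partners of the members were tested in 12 of 18 listed genes, with 7 lower, 5 higher and a median of −0.023. This median was 0.031 when values were scaled to the library total and 0.23 without WT replicate 2. Limma and edgeR called 0 of them, with 4 at an unadjusted limma P value under 0.05, and DESeq2 called 2 higher. That unadjusted level was reached by 13.3% of all genes tested, and DESeq2 called 1.56% of its genes higher. Havcr2, which encodes TIM-3 and belongs to the same family as Timd4, had 11.4 and 26.3 normalized counts in WT against 81.6 and 63.2 in LXRDKO (DESeq2 adjusted P = 0.0369, limma adjusted P = 0.188). Hp, which encodes the haptoglobin that Cd163 takes up with hemoglobin, had 173828 and 158434 in WT and 220866 and 242564 in LXRDKO (DESeq2 adjusted P = 0.0160, limma adjusted P = 0.344). Cd209g and Kcna1 were not analysed here.

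By GENCODE M21 on GRCm38 (mm10), the members lie on 6 chromosomes. Clec4f (chr6:83644542-83656187) and Cd207 (chr6:83671215-83677857) are neighbors on the minus strand with 15027 bases between them and no protein-coding gene in the gap, although their values went in opposite directions. Cd163 lies farther along the same chromosome (chr6:124304656-124330527). Cd5l (chr3:87357881-87371073) and Kcna2 (chr3:107101146-107115005) share chromosome 3, and Folr2 (chr7:101839988-101857194) and Il18bp (chr7:102014885-102018690) lie 157690 bases apart on chromosome 7. Marco is on chromosome 1 (chr1:120474538-120505024), Timd4 on chromosome 11 (chr11:46810800-46844332) and Vsig4 on the X chromosome (chrX:96247203-96293438). Of the nearest protein-coding genes on either side that are not themselves members, 7 were tested, and limma, DESeq2 and edgeR called 0 of them, with 1 at an unadjusted limma P value under 0.05. Their log2 fold changes ran from −0.96 to 0.015. The same unadjusted level was reached by 13.3% of all genes tested. Stambp, on the other side of Clec4f, had 988 and 845 normalized counts in WT against 901 and 947 in LXRDKO, and Inppl1, beside Folr2, had 3778 and 3803 against 3665 and 3241.

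The 5 tested genes outside the members with the pattern most like Clec4f were 1700080G11Rik, Cspg5, Gbp2b, Icos and Map1b. Likeness was the Euclidean distance over 4 libraries between log2(normalized count + 1) values, each gene centered on its own mean, and ran from 0.49 for 1700080G11Rik to 0.74 for Map1b. Cspg5, a chondroitin sulfate proteoglycan, had 222 and 253 normalized counts in WT against 60.7 and 31.1 in LXRDKO. Gbp2b, an interferon-induced GTPase, had 193 and 229 in WT and 26.6 and 26.8 in LXRDKO. Among the members themselves, Vsig4 (0.42) and Folr2 (0.46) were closer to Clec4f than any of these 5, and Marco (0.72) lay between Gbp2b and Icos.

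Promoter sequences from RefSeq on GRCm38.p6 were matched to all 10 members, with 11 promoters because Folr2 has a pair. The 250 bases before each start were searched on both strands. AGGTCA, the half-site bound by many nuclear receptors including LXR partners, was found in 14.0% of all 32851 promoters and in those of Clec4f, at −22 from the start, and Timd4, at −116. The direct repeat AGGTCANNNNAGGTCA, the DR4 arrangement known for LXR and RXR, was found exactly in 0 of the member promoters and in 0.0152% of all promoters, and with up to 2 mismatches in 1 promoter of Folr2 and 2.57% of all promoters. The half-site is contained in the repeat. GAGGAA, the core bound by PU.1, was found in 23.3% of all promoters and in those of Cd5l, Marco, Vsig4 and Cd207. A match is a run of letters, not a shown binding site. The sequences of the neighbors Clec4f and Cd207 are given because their values went in opposite directions, and those of Timd4 and Cd5l because they had the lowest LXRDKO levels relative to WT among the members with a match. Capitals mark the half-site in Timd4 and the PU.1 core, on the other strand, in Cd207 and Cd5l. For Clec4f the 71 bases nearest the RefSeq start lie inside the gene as GENCODE draws it and are left out, among them the half-site. The windows are chr6:83656188-83656366 on the minus strand for Clec4f, chr6:83677858-83678107 on the minus strand for Cd207, chr11:46810549-46810798 on the plus strand for Timd4 and chr3:87357631-87357880 on the plus strand for Cd5l, each written 5′ to 3′.
Clec4f: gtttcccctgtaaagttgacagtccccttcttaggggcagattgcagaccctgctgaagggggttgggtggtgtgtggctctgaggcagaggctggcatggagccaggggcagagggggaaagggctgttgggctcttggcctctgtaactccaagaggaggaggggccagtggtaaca
Cd207: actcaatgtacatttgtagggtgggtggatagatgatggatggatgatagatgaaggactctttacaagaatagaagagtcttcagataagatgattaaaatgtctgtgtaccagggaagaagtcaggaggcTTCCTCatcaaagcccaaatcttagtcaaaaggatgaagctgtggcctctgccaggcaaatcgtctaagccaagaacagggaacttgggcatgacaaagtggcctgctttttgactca
Timd4: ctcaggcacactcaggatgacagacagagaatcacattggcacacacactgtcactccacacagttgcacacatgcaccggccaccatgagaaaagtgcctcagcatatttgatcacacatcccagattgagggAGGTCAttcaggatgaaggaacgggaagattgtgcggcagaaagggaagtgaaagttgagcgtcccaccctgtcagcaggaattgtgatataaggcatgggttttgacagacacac
Cd5l: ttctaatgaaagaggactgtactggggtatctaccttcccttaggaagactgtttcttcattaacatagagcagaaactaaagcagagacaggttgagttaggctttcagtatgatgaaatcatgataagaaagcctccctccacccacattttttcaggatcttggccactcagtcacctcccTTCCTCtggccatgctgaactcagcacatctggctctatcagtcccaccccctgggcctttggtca

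Without replicates beyond 2 livers per genotype, the smallest P value of a two-sided exact permutation test on one gene is 0.33, and each adjusted P value above rests on the spread that limma, DESeq2 or edgeR shares across genes. Leaving out each liver in turn moved the log2 fold change least for Cd5l, between −7.97 and −7.73, and most for Timd4, between −8.12 and −5.59. The ranges were −7.08 to −5.97 for Kcna2, −5.29 to −4.45 for Cd163, −3.43 to −2.60 for Marco and −3.32 to −2.54 for Clec4f. They were −3.22 to −2.04 for Vsig4, −2.97 to −2.25 for Folr2, −1.51 to −1.10 for Il18bp and 1.89 to 3.05 for Cd207. The direction of a member is fixed in part by how it was chosen.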

How the data were processed

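Polyadenylated RNA from whole liver was prepared with the KAPA Stranded kit and read as single-end reads of 50 bp. The submitters' processing notes name FastQC, STAR 2.6.0c, mm10 and DESeq2; the counting tool and annotation release are not given in the sources used here. The deposited signal is read counts that the authors divided by DESeq2 size factors. Reads were recovered as whole numbers for 100% of values, within 0.01 reads. GENCODE M21 gave positions and exon lengths for 24987 genes.

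Log2(normalized count + 1) was compared with limma 3.58.1 (trend) in R 4.3.3 on the 15578 genes whose mean reached 10, with Benjamini-Hochberg adjustment over all of them and a threshold of 0.05. DESeq2 1.42.0 and edgeR 4.0.16 (quasi-likelihood) were run on the recovered reads. The fits were tested on simulated data. Other pseudocounts, filters and scalings, limma without the trend, the replicate number as a block and leaving out each liver were tried. The members and the gene lists were chosen with earlier results of these data known. Genes named are the members, the deleted receptors, genes of each list that limma or DESeq2 called or that are its 3 most abundant, flanking genes, the 5 genes most like Clec4f, and the 3 C1q genes that serve as a denominator; further genes (Il18, Gm10602, Numa1, Chil3, Retnlg) were named after their values were seen. The values of 1 gene that this rule takes are not reported here. Chromatin accessibility was not analysed here.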

Additional observations from a re-analysis of the deposited data

How the results depend on the processing

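Under the settings that can move a fold change, the 10 members kept its sign in 100 of 100 values, a direction that their choice fixes in part. The filters, the trend and the block leave these values as they are. A pseudocount of 8 moved Timd4 from −6.86 to −4.82, Kcna2 from −6.53 to −4.76 and Cd5l from −7.85 to −7.24, and the other members less. Limma called 50 genes in all; the count was 25 with a mean of at least 50, 1 without the trend and 567 with DESeq2, and leaving out single livers gave 2 to 265. With the replicate number as a block (replicate block) 90 genes were called. The deviations of same-numbered livers correlated at 0.0031, and the numbers are not stated to pair mice. The median of the members, −2.97, ran from −3.27 to −2.73 without single livers.

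Of 181 list medians under alternatives, 17 in 7 lists changed sign, 12 of them on leaving out a liver, 3 by scaling to the library total and 2 by a filter. The direction of these 7 medians (transcription factors, niche signals, general macrophages, dendritic cells, hepatocytes, neutrophils and paralogs) is therefore not settled. For general macrophages, 0.064 became −0.10 without WT replicate 1 and −0.27 without LXRDKO replicate 1. For hepatocytes, −0.047 became 0.0074 with scaling to the library total.

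Called genes in a list moved as follows. DESeq2 called 6 other Kupffer cell genes (limma 2), 2 niche signals, 1 general macrophage gene, 4 monocyte and lipid-associated genes (limma 1), 3 endothelial genes (limma 1), 2 stellate genes, 1 bile duct gene and 2 paralogs or partners. Other Kupffer cell genes had 1 call without a filter or with one at 50, and 0 without the trend. Monocyte and lipid-associated genes had 0 without the trend and 2 with the replicate block. The endothelial call was lost (0) with a pseudocount of 0.5, no filter, a filter at 50, the library total or the upper quartile as the scale, and without the trend. Leaving out single livers gave 0 to 4 calls for other Kupffer cell genes, 0 to 6 for monocyte and lipid-associated genes, 0 to 1 for endothelial genes, niche signals, general macrophages and paralogs. Fewer livers and fewer genes tested enter some of these; otherwise the cause was not tested. When an LXRDKO or WT liver is left out, the remaining one is assumed to vary like the other group. No lymphocyte gene was left at a mean of at least 50. Depth limits Kcna2 and Timd4, which had 0 to 5 reads per LXRDKO library.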
